A study of Mus musculus with 12 samples.

Results

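Autophagy is the process by which a cell encloses part of its own contents in a double membrane, the autophagosome, and delivers it to the lysosome for digestion. A kinase complex starts the process, a lipid kinase complex marks the membrane, a conjugation machinery that includes Atg5 attaches small ubiquitin-like proteins of the ATG8 family to it, and cargo receptors link those proteins to what is to be digested. In regulatory T cells (Tregs), a CD4 T cell type defined by the transcription factor Foxp3 that holds other immune cells in check, autophagy is known as a requirement for survival and stable identity.

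The 41 autophagy genes described here were chosen by symbol, by their known place in the pathway, and the rule uses no measured value. The choice was made with earlier results of these data known. All 41 were found among the 21839 genes of the count table. Of these, 40 passed the filter on low counts that left 11766 genes for testing. Wipi1, a reader of the lipid mark on the forming membrane, did not pass, with 0 to 9 reads in a library.

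The 12 libraries came from C57BL/6 mice, all with loxP-flanked Atg5 (Atg5 flox/flox). Mice called WT carried no CD11c Cre, and mice called TG carried it in the heterozygous state (CD11c Cre +/-), so that Atg5 is removed in cells that express CD11c, mainly dendritic cells; the study asked about Tregs of mice whose dendritic cells lack autophagy. CD4+ CD62L+ cells with high or low CD25, the interleukin-2 receptor chain encoded by Il2ra, were sorted from spleen and lymph nodes; CD62L is the homing receptor L-selectin. This gave the groups WT High, WT Low, TG High and TG Low, with replicates 1, 2 and 3 each. Age was not given, the labels name no Foxp3 stain in the sort, and the labels do not state that replicates are separate animals. The p-values therefore cover the spread among these libraries, which may be technical.

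Total counts ran from 6767828 (TG High replicate 2) to 23942479 per library. Markers of the labelled cells were present throughout: Foxp3 stood at 982 to 1662 CPM (counts scaled to library size with TMM, a normalization across libraries) and Il2ra at 481 to 1308. Itgax, which encodes CD11c, stood at 0 to 1.79 CPM. Markers of other cells followed the replicate number. The summed level of 10 B cell genes was 201 to 360 CPM in the 4 libraries numbered 1, 37.7 to 96.3 in those numbered 2 and 34.2 to 41.2 in those numbered 3. Libraries with the same number also varied together across all genes. The numbers were therefore treated as pairs when pairs were counted, and in a second fit that holds the replicate number constant (the block). The main fit leaves the number out. Its standard error (SE), interval and p take in the spread between numbers. They are the ones given for genotype and gate unless the block is named. For genotype over both gates the median SE of the autophagy genes was 0.082 without the block and 0.0655 with it. The block is given wherever it changes a call.

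The 3 sequences that follow show the promoter sequence of the gene that the study deletes elsewhere and of a pair of lysosomal membrane genes that differed in opposite directions between replicate numbers, described further on. Each is the 250 bases before the start site in RefSeq (GRCm38.p6), with the palindromic E-box CACGTG, a motif that the lysosomal regulator Tfeb and other factors bind, in capitals. The windows are chr10:44268089-44268338 (plus strand) for Atg5, chr8:13158911-13159160 (plus strand) for Lamp1 and chrX:38456461-38456710 (minus strand) for Lamp2.
Atg5: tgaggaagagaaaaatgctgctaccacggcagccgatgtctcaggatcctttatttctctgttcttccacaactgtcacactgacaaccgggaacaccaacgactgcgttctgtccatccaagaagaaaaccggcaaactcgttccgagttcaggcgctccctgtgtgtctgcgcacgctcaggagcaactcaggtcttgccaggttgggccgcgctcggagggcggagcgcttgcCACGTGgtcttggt
Lamp1: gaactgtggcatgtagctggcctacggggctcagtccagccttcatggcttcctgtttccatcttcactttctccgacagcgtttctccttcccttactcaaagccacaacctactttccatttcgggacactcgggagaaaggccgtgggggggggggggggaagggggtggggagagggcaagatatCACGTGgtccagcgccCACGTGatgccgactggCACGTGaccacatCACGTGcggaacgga
Lamp2: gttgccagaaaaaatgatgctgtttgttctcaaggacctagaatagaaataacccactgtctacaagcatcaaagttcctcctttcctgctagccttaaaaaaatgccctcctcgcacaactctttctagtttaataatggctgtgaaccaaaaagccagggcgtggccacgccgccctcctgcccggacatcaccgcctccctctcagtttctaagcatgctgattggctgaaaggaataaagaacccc
The Lamp1 window held 4 E-boxes, whose first bases lay 61, 45, 28 and 15 bases before the start. The Atg5 window held 1, at 14 bases before the start, and the letters do not occur in the Lamp2 window. A window with at least 4 E-boxes was found for 7 of 32851 RefSeq promoters (0.021%). Of the 34 autophagy genes with a promoter in the table, 5 held an E-box (14.71%): Atg3, Atg5, Atg7, Bnip3 and Lamp1. Of all 27025 genes with a promoter in the table, 6.86% did. The motif is its own reverse complement, so both strands are covered by a single search. A match to these letters is a description and does not show binding.

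Levels of different genes were compared per length, as RPKM (CPM per kilobase of exon), averaged over the 12 libraries. The length is that of all annotated exons of a gene merged, which can far exceed its longest coding transcript. It was 9991 bases against 3285 for Tax1bp1 and 14690 against 7607 for Rb1cc1, but 2352 by either count for Atg5. The orders between genes given below rest on this length and could change with another. The 3 genes at or above 100 RPKM came from different steps: Gabarap (134.0), an ATG8 family protein that is coupled to the membrane, Sqstm1 (133.95), the cargo receptor also called p62, and Lamp1 (133.4), an abundant glycoprotein of the lysosomal membrane. Another 8 lay between 20 and 100 RPKM, 26 between 4 and 20, and 4 below 4. The median was 9.35 RPKM.

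Within the initiation complex, Atg101 (35.3 RPKM) stood above the kinase genes Ulk2 (14.9) and Ulk1 (10.1) and the scaffold gene Rb1cc1 (7.57), also called FIP200. In the class III PI3-kinase group, which makes the lipid mark, Ambra1 (23.3), Becn1 (23) and the catalytic subunit gene Pik3c3 (20.8) stood above the regulatory subunit Pik3r4 (7.92) and the autophagy-specific subunit Atg14 (5.92). Among the lipid transfer and membrane supply genes, Atg2a (17.9) stood above Atg2b (6.16), and Atg9a, a membrane protein of the vesicles that feed the autophagosome, was at 8.35. The 2 PI3P readers stood apart, with Wipi2 at 12.5 RPKM and Wipi1 at 0.044, the lowest of all 41.

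The conjugation machinery ran from 40.2 RPKM for the E2-like enzyme Atg3 to 4.94 for the E1-like enzyme Atg7. Atg5 is a protein-coding gene on the plus strand of chromosome 10, from 44268358 to 44364291 in GRCm38. Its level of 15.7 RPKM placed it at rank 15 of the 41 genes and at the 68.09 percentile of all tested genes. Its neighbours in that order, Map1lc3b (16.0) and Ulk2 (14.9), lay within the range of its 12 libraries. Map1lc3b has 7517 bases of merged exon and a longest coding transcript of 2633, so its place beside Atg5 depends on the length used. Among the ATG4 proteases, which trim ATG8 proteins, Atg4b (10.2 RPKM) and Atg4d (8.62) stood above Atg4a (4.70) and Atg4c (0.656). In the ATG8 family, Map1lc3b (LC3B) stood at 16.0, Gabarapl2 at 9.14, Gabarapl1 at 6.07 and Map1lc3a (LC3A) at 5.12. Of the cargo receptors, Tax1bp1 (41.5) and Nbr1 (20.1) followed Sqstm1, the mitophagy receptor Bnip3l (18.3) stood above its relative Bnip3 (2.10), and Optn was at 0.336. Tfeb, a transcription factor for lysosomal and autophagy genes, was at 6.11, and Lamp2, the partner of Lamp1, at 5.07.

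These levels varied little between libraries for most of the pathway. The highest library was less than 1.5 times the lowest for 28 of the 41 genes, and the median of that ratio was 1.38. The steadiest was Atg13, a regulatory subunit of the initiation complex, at 94.4 to 103 CPM.

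**Figure D1:**
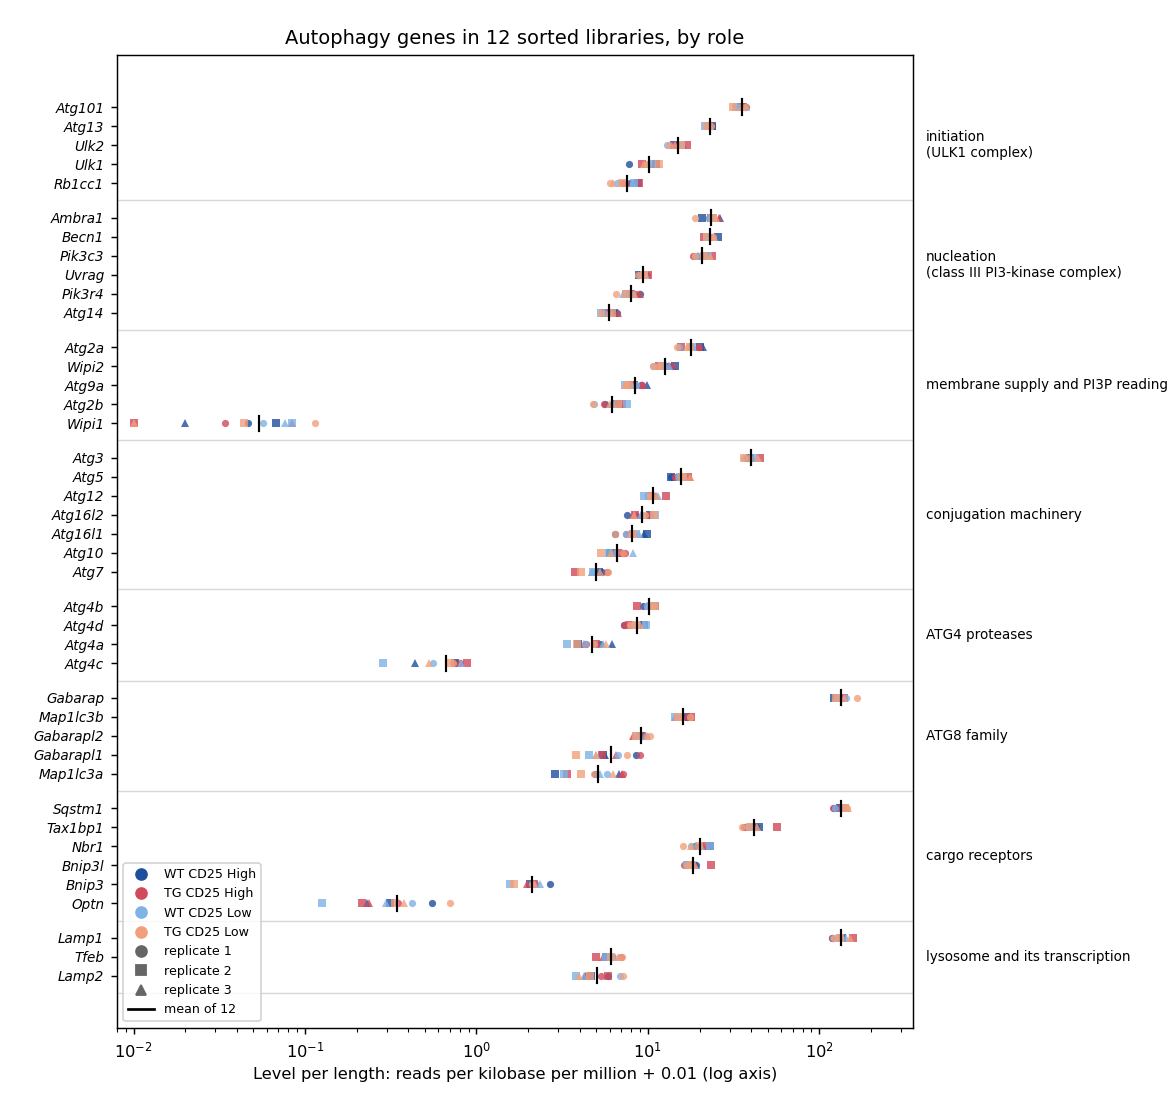
Level per length (RPKM plus 0.01, log axis) of the 41 autophagy genes in each of the 12 libraries, grouped by role; colours are groups, shapes replicates, and the bar is the mean of 12. Gabarap, Sqstm1 and Lamp1 lie above 100 RPKM, and Atg4c, Optn and Wipi1 lie below 1.

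Some counts are less certain than their depth implies. At least 19.8% of the longest transcript of Atg4a, Bnip3, Becn1, Atg9a, Bnip3l, Sqstm1, Gabarapl2, Gabarapl1 and Atg4d matched another annotated transcript at 97% identity or more, and the share was 96.0% for Atg4a and 94.2% for Bnip3. The chemistry does not mark strand, so reads of exons that overlap another counted gene cannot be told apart. The longest such overlaps were Becn1 with Cntd1 (3104 bases) and Atg4d with Kri1 (1405 bases). The search for matches did not set aside genes at the same place in the genome, so both measures can count the same bases. For Sqstm1, 583 bases matched another transcript and 580 overlapped Mrnip. Atg5 had neither an overlap nor such a match.

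The first comparison asked whether the Tregs of TG mice carried a different level of autophagy mRNAs, Atg5 among them. Atg5 was present in all libraries, at 32.1, 32.0 and 35.7 CPM in WT High replicates 1, 2 and 3, at 33.9, 40.4 and 41.5 in TG High, at 37.5, 36.4 and 37.1 in WT Low and at 36.5, 37.8 and 41.3 in TG Low. In each gate the lowest TG library lay within the WT range and the other TG libraries lay above it. TG was higher than WT in 5 of 6 same-numbered pairs. The log2 difference was 0.21 in High (SE 0.10, edgeR adjusted p = 1) and 0.06 in Low (SE 0.10, adjusted p = 0.9999). Over both gates it was 0.14 (SE 0.07, adjusted p = 0.9999), with an interval of 0.995-fold to 1.21-fold. Counts are per whole gene, so reads of the loxP-flanked part of Atg5 could not be looked at by themselves.

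None of the 40 tested autophagy genes differed between TG and WT by edgeR at an adjusted p of 0.05, in High, in Low or over both gates. The share of all 11766 genes called was 0% in each of the 3 comparisons, and with the replicate block it was 0%, 0% and 0.051%, again with no autophagy gene. At an unadjusted p under 0.05 the fit without the block counted 1 autophagy gene in High, 1 in Low and 0 over both gates, where 99, 48 and 163 of all 11766 genes did. The fit with the block counted 1, 3 and 1 autophagy genes, among 418, 382 and 781 of all genes. DESeq2 also called none of the 40 in these comparisons. The median log2 difference over both gates was 0.013 for the 40 genes and 0.0067 for all genes tested. The interval of the difference over both gates lay within 1.5-fold in either direction for 37 of the 40 and within 2-fold for all 40. The 3 with wider intervals than 1.5-fold were Atg4c, Map1lc3a and Optn, which have few reads.

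By role, the differences over both gates stayed small and none passed the test. The 5 initiation genes ran from -0.17 to 0.02 on the log2 scale and the 6 nucleation genes from -0.02 to 0.07. All 4 tested membrane supply genes had differences below 0 (-0.08 to -0.0046). All 5 ATG8 genes had differences above 0 (0.01 to 0.19), as had the 3 lysosomal genes (0.05 to 0.07). Conjugation genes ran from -0.12 to 0.14, ATG4 proteases from -0.11 to 0.29 and cargo receptors from -0.12 to 0.16. Of the 40 genes, 24 had differences above 0, as had 52.75% of all genes tested.

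**Figure D2:**
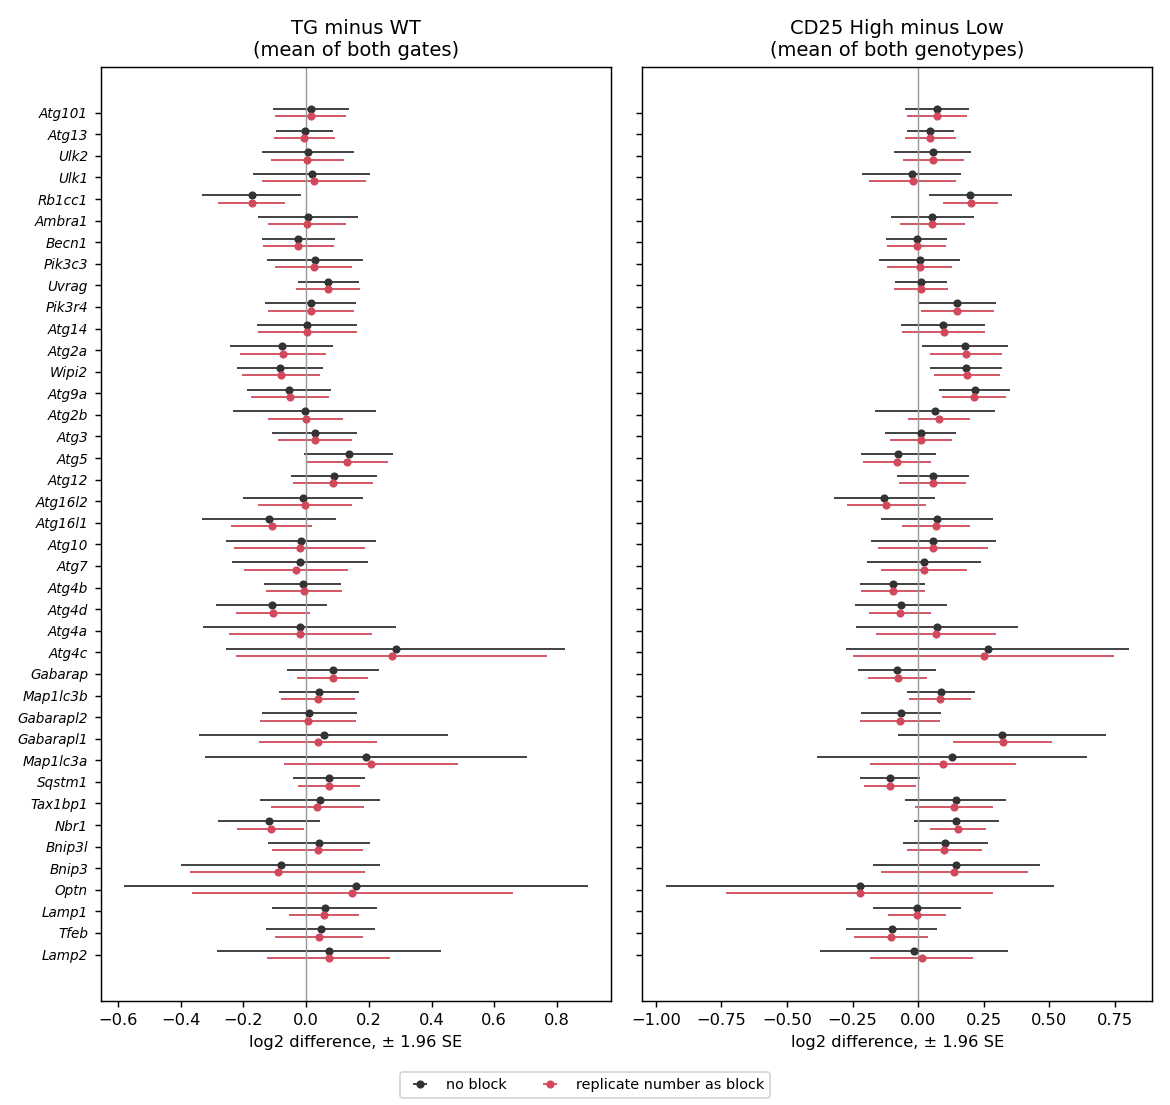
Log2 difference of each of the 40 tested autophagy genes between TG and WT (left) and between CD25 High and Low (right), with lines for the interval of the difference, in black without and in red with the replicate number as a block. On the left none passed the adjusted threshold; on the right Rb1cc1 alone passed it, with the block only.

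The genes with the smallest p are described for completeness. Rb1cc1, the scaffold of the initiation complex, stood at 115, 129 and 124 CPM in WT High, at 103, 130 and 111 in TG High, at 96.6, 122 and 120 in WT Low and at 88.2, 103 and 92.4 in TG Low. TG Low was below WT Low in 3 of 3 pairs, although the groups overlapped. The log2 difference in Low was -0.25 (SE 0.11, edgeR adjusted p = 0.9999 without and with the block). Over both gates it was -0.17 (SE 0.08, adjusted p = 0.9999; 0.51 with the block), with TG higher in 1 of 6 pairs.

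Uvrag, a regulatory subunit of the class III PI3-kinase, had the smallest p in High. Its level was 80.5, 79.5 and 80.9 CPM in WT High against 89.2, 90.1 and 89.0 in TG High, and 80.8, 85.3 and 87.4 in WT Low against 78.5, 85.6 and 87.2 in TG Low. All TG High libraries stood above all WT High libraries, and the Low groups overlapped. The log2 difference in High was 0.15 (SE 0.07, adjusted p = 1), and the test of whether the genotype difference was unlike between the gates gave 0.17 (SE 0.10, adjusted p = 0.9999). Atg13 also did not overlap between TG and WT in High, in the other direction. Even full separation of 3 against 3 libraries cannot give an exact two-sided permutation p below 0.1. Here and below, how many of all genes separate without overlap was not counted.

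Atg12, the ubiquitin-like partner that is joined to Atg5, followed Uvrag and Atg5 in High. It stood at 82.4, 78.9 and 78.7 CPM in WT High, at 78.6, 98.7 and 86.0 in TG High, at 76.4, 73.4 and 87.9 in WT Low and at 79.0, 80.0 and 86.2 in TG Low. Its groups overlapped in both gates, and the highest value was that of the shallowest library. The log2 difference in High was 0.13 (SE 0.10, adjusted p = 1).

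Nbr1, a cargo receptor related to p62, stood at 128, 159 and 154 CPM in WT High, at 139, 150 and 141 in TG High, at 123, 159 and 140 in WT Low and at 109, 136 and 122 in TG Low. TG Low was below WT Low in 3 of 3 pairs with overlapping groups, and the log2 difference in Low was -0.20 (SE 0.12, adjusted p = 0.9999). Optn, a receptor for damaged mitochondria and bacteria, had few reads. Its level was 2.04, 1.14 and 0.828 CPM in WT High against 1.27, 0.765 and 0.844 in TG High, and 1.54, 0.436 and 1.08 in WT Low against 2.61, 1.21 and 1.38 in TG Low. The groups overlapped in both gates, and the log2 difference in Low was 0.76 (SE 0.53, adjusted p = 0.9999).

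**Figure D3:**
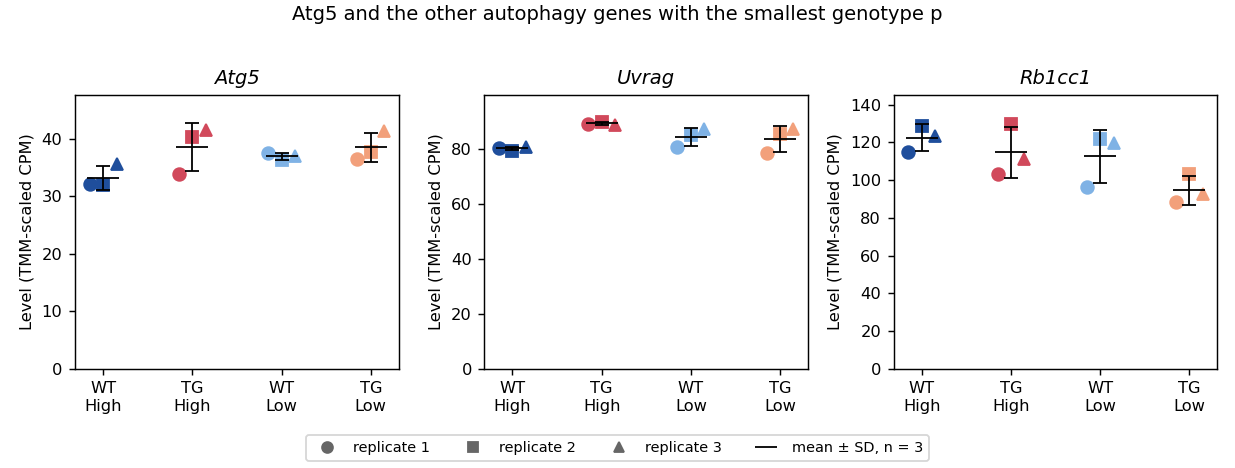
Level (TMM-scaled CPM, axis from 0) of Atg5, of Uvrag, which had the smallest genotype p in CD25 High, and of Rb1cc1, which had it in CD25 Low, in each library, with the mean and SD of 3. All TG High values of Uvrag lie above those of WT High, while Atg5 and Rb1cc1 overlap between TG and WT in both gates; none of these differences passed the adjusted threshold.

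No autophagy gene was called by edgeR for a genotype difference that itself differed between High and Low. The median SE of this difference of effects was 0.16 for the 40 genes without the block. The widest interval reached 1.48 to either side on the log2 scale, so differences within such intervals could be missed. The share called among all genes was 0% without and with the block, and 0 autophagy genes reached an unadjusted p of 0.05 without the block (27 of all 11766 genes) and 1 with it (118 of all genes); DESeq2 called none. That gene was Optn (log2 difference of effects -1.24, SE 0.52, adjusted p = 0.9997 with the block). For Atg5 the difference of effects was 0.15 (SE 0.15, adjusted p = 0.9999). Markers of B cells, of myeloid or dendritic cells and of cycling cells of any type mostly had positive differences between TG and WT, with few called. All 10 B cell genes had a positive difference over both gates (median 0.71), and 1 of them was called with the block. Their summed level was highest in the libraries numbered 1 of both genotypes (201 to 360 CPM). Of 10 tested myeloid or dendritic genes, 9 were positive (median 0.64, and 8 with a median of 0.41 with the block), and the 10 cycling genes were all positive (median 0.38), with none called in either list. In Low with the block, 5 of the 10 myeloid or dendritic genes were positive. Of 10 CD8 T or NK genes, 5 were positive over both gates and none was called. The part of these markers in the values above was not tested. In bulk samples, a change in the share of a cell type and a change in RNA per cell cannot be told apart.

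The second comparison asked how the pathway differs between cells with high and low CD25. Without the block, edgeR called none of the 40 autophagy genes in WT (all genes 0.051%), in TG (0.0085%) or over both genotypes (0.518%), and DESeq2 none. At an unadjusted p under 0.05 these fits counted 0, 2 and 3 autophagy genes, among 391, 578 and 1021 of all 11766 genes, and with the block 1, 5 and 7, among 1085, 1433 and 2142. With the replicate block the share of all genes called was 1.63% in WT, 1.68% in TG and 5.88% over both genotypes, and the autophagy genes called were 0, 0 and 1. The median log2 difference between High and Low over both genotypes was 0.056 for the 40 autophagy genes and 0.00013 for all genes tested. Of the 40, 27 were above 0, as were 50.04% of all genes tested.

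The gene called was Rb1cc1, whose values are given above. It was higher in High than in Low in 6 of 6 pairs, as were Atg9a, Gabarapl1 and Pik3r4, while Sqstm1 was lower in 6 of 6. Here and below, how many of all genes had all 6 pairs in the same direction was not counted. For Rb1cc1 in TG the High libraries stood above all Low libraries, and in WT the groups overlapped. The log2 difference over both genotypes was 0.20 with the block (SE 0.05, edgeR adjusted p = 0.0397) and 0.20 without it (SE 0.08, adjusted p = 0.505). The call was kept when replicate 2 of WT High or replicate 3 of WT Low was left out. It was lost when any of the other 10 libraries was left out (adjusted p 0.0566 to 0.162), and the 8 libraries numbered 2 and 3 gave 0 autophagy genes with the block.

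No gene of the membrane supply group passed the test. Its 4 tested genes had log2 differences over both genotypes of 0.06 (Atg2b) to 0.21 (Atg9a), and the 3 with the smallest p are given here. Atg9a, the vesicle membrane protein, stood at 52.8, 47.4 and 56.5 CPM in WT High, at 53.0, 47.3 and 52.9 in TG High, at 49.1, 42.3 and 45.8 in WT Low and at 43.1, 44.8 and 42.2 in TG Low. It was higher in High in 6 of 6 pairs, and the groups overlapped in WT and did not in TG. The log2 difference over both genotypes was 0.21 (SE 0.07, adjusted p = 0.281; 0.061 with the block).

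Wipi2, the more abundant PI3P reader, stood at 137, 151 and 145 CPM in WT High, at 146, 122 and 139 in TG High, at 113, 129 and 139 in WT Low and at 113, 127 and 120 in TG Low. It was higher in High in 5 of 6 pairs, and the exception was replicate 2 of TG. The log2 difference over both genotypes was 0.18 (SE 0.07, adjusted p = 0.447). Atg2a, a lipid transfer protein, had the same exception, with 137, 155 and 160 CPM in WT High against 117, 139 and 141 in WT Low, and 152, 120 and 153 in TG High against 113, 136 and 130 in TG Low. Its log2 difference was 0.18 (SE 0.08, adjusted p = 0.589).

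Atg4b, the most abundant ATG4 protease, was among the 3 genes with the smallest p in TG. It stood at 77.1, 91.4 and 82.8 CPM in WT High, at 82.7, 71.2 and 81.9 in TG High, at 81.8, 90.2 and 82.8 in WT Low and at 88.4, 90.6 and 87.9 in TG Low. All TG High libraries stood below all TG Low libraries, and the WT groups overlapped. The log2 difference in TG was -0.18 (SE 0.09, adjusted p = 0.999).

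For Atg5, WT High lay below WT Low in 3 of 3 pairs with no overlap (log2 difference -0.15, SE 0.10, adjusted p = 1), whereas the TG groups overlapped and differed by close to 0 (0.00088, SE 0.10, adjusted p = 0.999), with a sign that turned with the block (-0.0041) and with DESeq2 (-0.0013). The test of whether the genotypes differed in this gave 0.15 (SE 0.15, adjusted p = 0.9999). The WT gates also did not overlap for Atg13, Atg7 and Map1lc3b, which were higher in High. Beside the genes named above, the TG gates did not overlap for Uvrag, Nbr1 and Atg4c, higher in High, and for Sqstm1, lower in High. How many of all genes separate without overlap was not counted. Sqstm1 was lower in High than in Low in 6 of 6 pairs, with a log2 difference of -0.11 (SE 0.06, adjusted p = 0.703). Markers of several other cells were lower in High: with the block, 4 of 10 tested myeloid or dendritic genes, 5 of 10 CD8 T or NK genes and 1 of 10 B cell genes were called lower. Cycling genes went the other way, with 10 of 10 positive (median 0.44) and none called without the block, and 9 of 10 positive and 1 called higher with it. The summed level of 15 myeloid or dendritic genes ran from 11.8 to 46.0 CPM in the High libraries and from 9.91 to 156 in the Low libraries. Of 8 T cell and Treg markers, Il2ra among them, 3 were called higher in High without the block and 5 with it. Il2ra encodes the CD25 by which the gates were sorted, so a higher level in High follows from the sort. The summed level of the 8 markers, Il2ra included, was 8751 to 9073 CPM in WT High and 8873 to 9458 in TG High. It was 6443 to 6748 in WT Low and 6604 to 7216 in TG Low. The part of all these markers in the autophagy values was not tested.

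The third comparison followed the replicate number, whose meaning the labels do not give. With the 4 groups held constant, 34.3% of all 11766 genes differed between the numbers (edgeR, adjusted p of 0.05), and 10 of the 40 autophagy genes did, a share no larger than that of all genes. These 10 came from every role except nucleation. The share of a gene's variance that went with the number had a median of 34.2% over the autophagy genes and 40.6% over all tested genes. For genotype the medians were 2.04% and 3.12%, and for the CD25 gate 11.5% and 5.65%. Sizes below are replicate 1 minus the mean of replicates 2 and 3.

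Lower in replicate 1, with no overlap with the other 8 libraries, were Atg2b, Atg16l1 and Lamp1. For these and for the genes below, the share of all genes that separate by number in this way was not counted. Atg2b, the second lipid transfer protein, stood at 75.9, 88.3 and 82.7 CPM in WT High, at 74.8, 94.7 and 92.3 in TG High, at 65.0, 101 and 84.6 in WT Low and at 64.3, 90.3 and 80.7 in TG Low. Replicate 1 was the lowest in all 4 groups, and the log2 difference was -0.35 (SE 0.07, edgeR adjusted p = 0.00137).

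Atg16l1, which carries the Atg12 and Atg5 pair to the membrane, stood at 61.7, 95.6 and 91.0 CPM in WT High, at 72.1, 78.8 and 80.4 in TG High, at 71.9, 82.2 and 85.1 in WT Low and at 61.7, 79.0 and 77.1 in TG Low. Its log2 difference was -0.32 (SE 0.07, edgeR adjusted p = 0.00749), and the call was lost without WT High replicate 1 (adjusted p = 0.054). Lamp1 stood at 319, 362 and 354 CPM in WT High, at 315, 421 and 367 in TG High, at 323, 354 and 385 in WT Low and at 324, 353 and 405 in TG Low. The 4 libraries numbered 1 lay close together below all others, and the log2 difference was -0.23 (SE 0.06, adjusted p = 0.0268). That call was lost without WT Low replicate 1 (adjusted p = 0.072) or 3 (0.056), TG High replicate 1 (0.102) or TG Low replicate 1 (0.0781). In Atg2b the call was kept without any single library.

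The genes Atg4d, Nbr1 and Rb1cc1 were also lowest in replicate 1 of all 4 groups, but replicate 1 overlapped the others across groups. Atg4d, an ATG4 protease, stood at 53.0, 69.1 and 68.0 CPM in WT High, at 52.7, 56.3 and 67.7 in TG High, at 60.4, 70.7 and 69.0 in WT Low and at 57.2, 62.1 and 65.2 in TG Low. Its log2 difference was -0.24 (SE 0.06, edgeR adjusted p = 0.0212), lost without WT High replicate 1 (adjusted p = 0.104), WT Low replicate 1 (0.0585), or TG High replicate 1 (0.0536) or 3 (0.0562). In every same-numbered pair of Atg4d the TG library was also below the WT library (6 of 6). The log2 difference between TG and WT was -0.11 (SE 0.09, edgeR adjusted p = 0.9999), which did not pass the test. Atg4d was named after its values were seen. No other tested autophagy gene had all 6 pairs in the same direction between TG and WT. How many of all genes did was not counted, so these pairs are not read as a genotype effect.

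The log2 difference between replicate 1 and the others was -0.21 for Nbr1 (SE 0.06, edgeR adjusted p = 0.0142) and -0.20 for Rb1cc1 (SE 0.06, adjusted p = 0.019). The call of Nbr1 was lost without replicate 1 of WT High (0.0565) or of WT Low (0.0664), and that of Rb1cc1 without WT Low replicate 1 (0.0934). Rb1cc1 was thus called both by gate, with the block, and by replicate number.

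Higher in replicate 1 were Gabarapl1, Lamp2 and Optn. Gabarapl1, an ATG8 family protein, stood at 17, 11 and 11.3 CPM in WT High, at 18.1, 10.9 and 13 in TG High, at 13.4, 9.11 and 9.98 in WT Low and at 15.1, 7.67 and 9.96 in TG Low. The libraries numbered 1 lay above all 8 others, and the log2 difference was 0.62 (SE 0.10, edgeR adjusted p = 0.000504), the smallest p of the 40 genes. Within every number High also stood above Low in both genotypes (6 of 6 pairs, log2 difference 0.32, SE 0.20, adjusted p = 0.779; 0.063 with the block), which did not pass the test.

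Lamp2 moved against Lamp1. It stood at 55.6, 44.5 and 41 CPM in WT High, at 50.6, 55.9 and 41.6 in TG High, at 65.4, 36.2 and 40.4 in WT Low and at 68.1, 43.7 and 38.0 in TG Low. Replicate 1 was the highest in 3 of 4 groups, the exception being TG High, where the shallow replicate 2 was higher. The log2 difference was 0.50 (SE 0.10, edgeR adjusted p = 0.00497). The E-boxes of the Lamp1 window and the window of Lamp2 are printed above; whether they bear on the opposite directions was not tested. The calls of Gabarapl1 and Lamp2 were kept without any single library.

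Optn, whose values are given above, was highest in replicate 1 of all 4 groups at 1.27 to 2.61 CPM (log2 difference 0.95, SE 0.26, edgeR adjusted p = 0.027). Its call was lost without WT High replicate 1 (0.0967), WT Low replicate 1 (0.0855) or 2 (0.0594), or TG Low replicate 1 (0.104) or 2 (0.0563).

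Map1lc3a differed in another way, with replicate 2 set apart. Its level was 5.78, 3.37 and 7.97 CPM in WT High against 8.48, 3.98 and 8.30 in TG High, and 6.77, 3.82 and 6.21 in WT Low against 5.68, 4.79 and 7.42 in TG Low. All 4 libraries numbered 2 lay below all 8 others. The log2 difference between replicates 2 and 3 was -0.89, and the test over the 3 numbers gave an edgeR adjusted p of 0.00313, a call kept without any single library. When the 4 libraries numbered 1 were left out, replicates 2 and 3 differed in 934 genes, and Map1lc3a was the single autophagy gene among them (log2 difference -0.90, adjusted p = 0.00978).

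Atg5 did not pass this test (log2 difference -0.10, SE 0.07, edgeR adjusted p = 0.297). Replicate 1 was lowest in TG High and TG Low, and highest in WT Low.

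**Figure D4:**
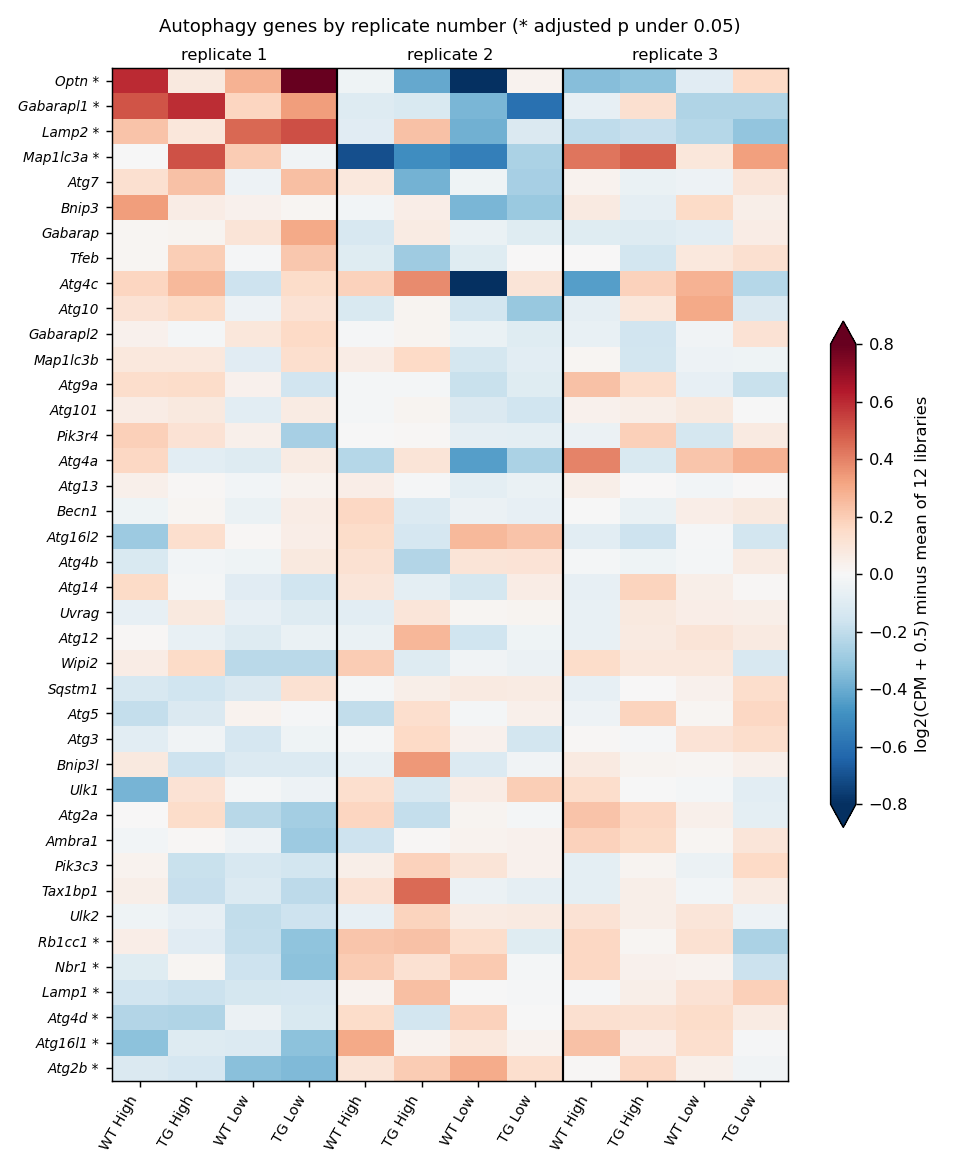
Each tested autophagy gene in each library as log2(CPM + 0.5) minus its mean over 12 libraries, ordered by the difference between replicate 1 and the others, with colours saturating at ± 0.8. Rows marked * are the 10 genes that differed between replicate numbers at an adjusted p of 0.05.

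**Figure D5:**
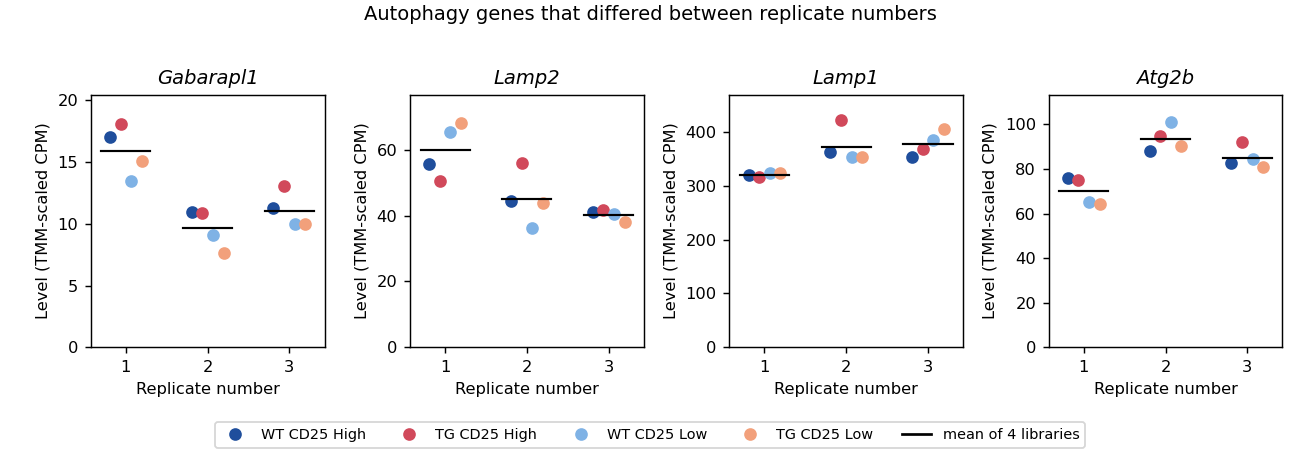
Level (TMM-scaled CPM, axis from 0) of Gabarapl1, Lamp2, Lamp1 and Atg2b by replicate number, with a point for each library and a bar for the mean of 4. The libraries numbered 1 lie above all others for Gabarapl1 (13.4 to 18.1) and below all others for Lamp1 (315 to 324) and Atg2b (64.3 to 75.9), and overlap them for Lamp2.

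Markers of other cell types, and genes of cycling cells of any type, went with the same number. All 10 B cell genes were called higher in replicate 1, with a median log2 difference of 3.46. The same held for 7 of 10 tested myeloid or dendritic genes of the 15 listed (median 3.15) and for all 10 cycling genes (median 3.39). Of 10 CD8 T or NK genes, 8 were called higher and 1 lower. The summed myeloid or dendritic level was 22.7 to 156 CPM in the libraries numbered 1 and 9.91 to 21.9 in the others, and the summed cycling level was 281 to 518 against 83.6 to 127. Of the defining genes, Itgax averaged 0.769 CPM in replicate 1, 0.024 in replicate 2 and 0 in replicate 3. Their part in the differences of the autophagy genes was not tested. T cell and Treg markers were mixed, with 2 of 8 called higher and 2 lower.

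Other genes around the pathway were taken from 5 further lists. They held 30 tested genes of other autophagy machinery, 16 of other selective receptors and regulators, 24 of upstream kinases and transcription factors, 33 of lysosomal enzymes and membrane proteins and 16 subunits of the vacuolar ATPase, the proton pump that acidifies the lysosome. Between TG and WT over both gates, edgeR called none of them with or without the block, and the list medians ran from -0.014 to 0.064 on the log2 scale. Between High and Low, none was called without the block and 5 were called with it, against 5.88% of all genes.

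These 5 were Sesn1, Atp6v0a1, Lgmn, Ctsd and Npc2. Sesn1, a sestrin that restrains mTORC1, averaged 362 CPM in WT High against 308 in WT Low, and 325 in TG High against 268 in TG Low (log2 difference 0.25, edgeR adjusted p = 0.0216 with the block). The ATPase subunit gene Atp6v0a1 was also higher in High (0.36, adjusted p = 0.0189). Lower in High were the lysosomal protease genes Lgmn, which encodes legumain (-0.44, adjusted p = 0.00295), and Ctsd, which encodes cathepsin D (-0.24, adjusted p = 0.00727), and the cholesterol carrier gene Npc2 (-0.18, adjusted p = 0.04985). Lgmn averaged 39.1 CPM in WT High and 42.7 in TG High against 54.3 in WT Low and 56.3 in TG Low. Ctsd averaged 424 and 423 CPM in the High groups against 491 and 505 in the Low groups. The other 30 lysosomal genes tested did not pass.

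Between replicate numbers, against 34.3% of all genes, 9 of the 30 other machinery genes, 4 of the 16 selective receptors, 8 of the 24 upstream genes, 11 of the 33 lysosomal genes and 4 of the 16 ATPase subunits were called. Ctsh, which encodes cathepsin H, averaged 10.8 CPM in replicate 1, 1.37 in replicate 2 and 0.494 in replicate 3 (log2 difference 3.76, edgeR adjusted p = 1.86e-09). Rubcnl, which encodes the PI3-kinase regulator Pacer, averaged 3.33, 0.548 and 0.127 CPM (3.74, adjusted p = 0.000803). The other genes named here differed less: Hif1a, a hypoxia-response factor (0.43), Sesn2, another sestrin (0.60), Ctsb, which encodes cathepsin B (0.41), and Atp6v1a, the catalytic ATPase subunit (0.34), were higher in replicate 1. Trappc8, a tethering factor for Atg9 vesicles, was lower (-0.33).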

How the data were processed

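RNA was measured by sequencing in 12 libraries of sorted mouse CD4 T cells, grouped by sample title into 4 groups of 3. Per the labels, RNeasy Mini RNA (10 ng) was amplified with the SMARTer Ultra Low kit, and Nextera XT libraries were made, which do not mark strand. Reads were processed with CASAVA 1.8.2, STAR 2.4 and featureCounts 1.4.6 on GRCm38, per the submitters' processing notes; their settings were not given in the sources used here. Raw whole-number counts per Ensembl gene, not normalized, were deposited, and 21628 of 21839 identifiers were matched to symbols in GENCODE vM21.

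Counts were tested with edgeR 4.0.16 in R 4.3.3 (TMM scaling, filterByExpr at a minimum count of 10, robust quasi-likelihood fits over all 12 libraries with 4 groups as levels, Benjamini-Hochberg adjustment over 11766 genes at 0.05). The tested genes held 99.9645% of the counts. The SE is the log2 difference divided by the square root of F, and intervals are ± 1.96 SE. RPKM uses the TMM-scaled CPM and the union exon length. The steps were run on simulated counts with planted genotype changes, as a check of the code. That run does not show how small a difference could be found in these data. The members and lists were chosen with earlier results of these data known. Values in every library are given for Atg5, for every member called, and for the 3 members with the smallest p in comparisons with fewer than 3 called; up to 3 genes of each other list with the smallest p are named. Gabarapl1 and Sqstm1 in the gate comparison and Atg4d in the genotype comparison were named after their values were seen.

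The labels number replicates 1 to 3 in every group. Over all tested genes, deviations from the group mean correlated at 0.381 to 0.838 between same-numbered libraries of different groups (18 pairs) and at -0.685 to 0.197 between differently numbered ones (36 pairs), and 12 of 12 libraries were most like one of their own number. The numbers were therefore taken to pair the samples, a pairing seen in the data and not stated in the labels. The main fit did not use this pairing, and the fit with the replicate block did. Exact permutation of 3 against 3 libraries cannot go below a two-sided p of 0.1, and no such test was used for single genes. Alternatives were the replicate block, DESeq2 1.42.0, no filter, only the groups compared, only libraries numbered 2 and 3, and leaving out each library.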

Additional observations from a re-analysis of the deposited data

How the results depend on the processing

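No autophagy gene was called between TG and WT under any alternative run. With the replicate number as a block, calls over all genes rose to 6 between TG and WT over both gates (DESeq2 1, otherwise 0), and between High and Low from 6 to 192 in WT, from 1 to 198 in TG and from 61 to 692 over both genotypes, where 1 autophagy gene, Rb1cc1, was called. The block changed no other call of an autophagy gene. DESeq2 called 46, 63 and 256 genes between High and Low in WT, TG and both. In the 8 libraries numbered 2 and 3 these counts were 0, 0 and 3 without and 49, 39 and 177 with the block. Fitting only the groups compared gave 1 in WT and 0 in TG, and no filter gave 3 in TG. Between replicates 2 and 3 alone, an alternative chosen after seeing the data, 934 genes and 1 autophagy gene differed.

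Leaving out each library in turn gave 2956 to 4550 genes and 5 to 14 autophagy genes between replicate numbers. Between High and Low it gave 15 to 75 over both genotypes (415 to 775 with the block, with 0 to 2 autophagy genes), 0 to 3 in TG (74 to 235 with the block) and 0 to 7 in WT (87 to 247). Between TG and WT with the block it gave 0 to 2 in Low and 1 to 8 over both gates. The High to Low difference of Atg5 in TG, which is near 0, changed sign with the block (-0.0041), with DESeq2 (-0.0013), and no filter (-0.0017), and ran from -0.0646 to 0.0895 when each library was left out, below 0 for 5 of 12. The cause of these changes was not tested. Depth limits Optn, Atg4c and Wipi1 most.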
